A study of Mus musculus with 98 samples.

Results

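The cells described here are wild-type mouse helper T cells that carry a retroviral vector for the transcription factor MYC, set against wild-type cells that carry a control vector. The members are the 8 RNA-seq libraries, of 98 samples in the series and 88 RNA libraries, whose labels give the wild-type genotype and either a MYC vector or its control. In set 2 a MYC vector alone was compared with a control vector alone, with 2 libraries per group. In set 5 cells carried 2 vectors at once, and control with MYC was compared with control with control, again with 2 libraries per group. Each side therefore holds 4 libraries. The series as a whole asks how the axis of interleukin-2 (IL-2) and STAT5 sets the metabolism of CD4 T cells, with cells of normal or missing STAT5 and with vectors for STAT5, CD25, MYC or AKT.

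All 8 libraries came from C57BL/6 mice, from spleen and peripheral lymph nodes that had been pooled. Naive CD4+CD44-CD25- cells were sorted, stimulated with antibodies to CD3 and CD28, transduced, and then held in human IL-2 for 18 h, in a culture of 4 days. Every culture, control included, was thus activated, transduced and given IL-2. The labels give neither the animals' age, nor the species of the MYC sequence in the vector, nor a vector marker, nor whether transduced cells were separated from those that took up no vector. Cells with normal MYC levels can therefore be part of each MYC library, and their share was not tested.

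MYC is a basic helix-loop-helix protein that binds DNA as a dimer with MAX, preferring short palindromes called E-boxes, and raises transcription of genes for growth. Its best known targets build ribosomes, make nucleotides, polyamines and amino acids, and fold proteins. In T cells, endogenous Myc is switched on by antigen receptor signals and sustained by IL-2, and the protein drives the increase in cell size and metabolism that precedes division.

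Depth in the 8 libraries ran from 11.4 M to 31.4 M counts. The 2 numbered replicates came from mice of opposite sex: Xist, transcribed from the inactive X chromosome, was at 1104 to 2070 CPM (a gene's counts per 1000000 counts of the scaled library) in the replicate 2 libraries and at 0.55 to 10.3 in the replicate 1 libraries, so each group holds 1 library of each sex. The labels do not say how many animals stand behind them, so a p-value here speaks of the spread among libraries alone. That spread was estimated over all 52 libraries of the fit, of which these 8 are part. Stat5a and Stat5b, which the wild-type genotype should carry, stood at 74.3 to 107 and 160.1 to 207 CPM. CD4 T cell markers summed to 4274 to 5829 CPM in control and 4000 to 4608 in MYC libraries. Markers of B cells stayed at 2.27 to 3.94 against 2.40 to 4.93 CPM, and those of NK cells at 2.22 to 4.37 against 2.36 to 3.26. Myeloid and antigen-presenting cell markers summed to 42.7 to 168.6 against 41.0 to 131 CPM, with the higher values of both groups in set 2. CD8 markers stood at 12.3 to 18.0 against 8.30 to 15.5 CPM, and red cell and platelet markers at 0.41 to 0.98 against 0.13 to 1.64, with Hba-a1, Hbb-b1 and Hbb-bs at 0 reads in all 8 libraries. In bulk RNA, fewer cells of a type and less RNA per cell cannot be told apart.

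Myc itself rose. It stood at 233 and 256 CPM with the control vector and 406 and 328 with the MYC vector in set 2, and 177 and 158 against 357 and 284 in set 5. Thus all 4 MYC libraries lay above all 4 control libraries. The fold was 1.69 (log2 fold change 0.76 ± 0.19 (SE), edgeR adjusted p = 0.0314). Reads from the vector and from the cell's own gene were counted together, so the split between them is not known. The size of the increase was 0.57 ± 0.27 in set 2 and 0.94 ± 0.27 in set 5 on the log2 scale. Without the block for replicate number the adjusted p was 0.0864, and it missed the threshold in 7 of the 8 fits that left out 1 library, at up to 0.319. Of the 13 genes tested of the network around MYC, Myc alone was called: the partner Max had a log2 fold change of -0.00 ± 0.09 and the antagonists Mxd1 and Mnt -0.18 ± 0.11 and -0.07 ± 0.16.

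The edgeR test covered 16359 genes and called 228 (adjusted p below 0.05). With the MYC vector 151 of these were higher (0.923% of genes tested) and 77 lower (0.471%). The balance of directions depended on the fit: with only the 8 libraries it was 734 higher against 1202 lower, and with DESeq2 350 against 278. The changes were modest, with a median log2 fold change of 0.51 over the genes called higher and -0.43 over those called lower, against -0.005 over all genes. Of the 228 genes, 222 moved in the same direction in all 4 pairs of libraries that share a set and a replicate number. Of all genes tested 14.8% were higher and 14.3% lower in all 4 pairs. The calls came from these same pairs, so this agreement is partly built in. The groups of 4 did not overlap for 108 of the genes called higher and 27 of those called lower, where 2.11% and 1.53% of all genes tested had groups that did not overlap in those directions. Without the block 130 genes were called, all of them among the 228. Leaving out 1 library of the 8 left 17 to 132 calls, fewest without replicate 1 of the set 5 MYC libraries, and leaving out 2 libraries outside the comparison, which share its estimate of spread, gave 619 calls that held all 228. Of the 45 genes named by the rule, 3 kept their calls in all 8 fits that left out 1 library, 34 lost them in some and 8 in all; 5 kept them without replicate 1 of the set 5 MYC libraries and 7 without replicate 1 of the set 2 control libraries. Without the block 32 of the 45 kept them.

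**Figure D1:**
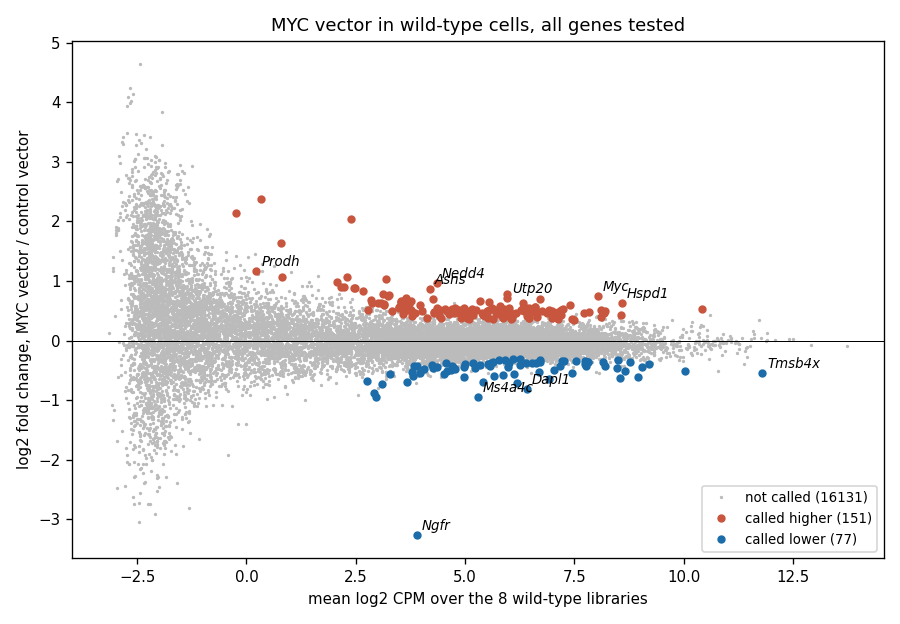
Each dot is 1 of 16359 genes: the x axis is the mean level over the 8 wild-type libraries in log2 CPM, the y axis the log2 fold change of MYC vector over control vector. Red dots are the 151 genes called higher and blue dots the 77 called lower; Ngfr lies far below the others, at -3.26.

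Genes that build ribosomes moved together. Of 39 tested genes of ribosome biogenesis, 17 rose and none fell (0.923% of all genes were called higher), their median log2 fold change was 0.37, and 38 of 39 were higher in all 4 pairs, where 14.8% of all genes were. Bysl, which acts in maturation of the small subunit, was the exception at -0.12 ± 0.12. The median was 0.30 to 0.46 under 16 other settings, but the number called fell to between 1 and 9 when 1 library was left out, with 1 without replicate 1 of the set 5 MYC libraries and 2 without replicate 1 of the set 2 controls. It was 12 without the block, 2 in set 2 alone and 0 in set 5 alone. Utp20, a component of the complex that processes precursor ribosomal RNA, stood at 43.5 and 39.0 CPM with the control vector and 71.7 and 79.7 with the MYC vector in set 2, and 67.0 and 49.6 against 97.8 and 74.1 in set 5. All 4 MYC libraries were above all 4 controls (log2 fold change 0.72 ± 0.11 (SE), edgeR adjusted p = 0.000835), and the call held in each of the 8 fits that left out a library. Heatr1, which works in the same early precursor particle, went from 68.4 and 61.3 to 114 and 111 CPM in set 2 and from 107 and 88.7 to 132 and 113 in set 5, again with no overlap. Its call was lost in 1 of those fits. Heatr1 changed by 0.56 ± 0.11 on the log2 scale (SE; edgeR adjusted p = 0.0061).

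Nolc1, a nucleolar chaperone of small nucleolar ribonucleoproteins, went from 107 and 115 to 178 and 198 CPM in set 2 and from 175 and 160.2 to 241 and 214 in set 5 and did not overlap. Nolc1 changed by 0.60 ± 0.14 on the log2 scale (SE; edgeR adjusted p = 0.0262). Its call was lost in every fit that left out 1 library. Ppan, needed for the large subunit, stood at 43.7 and 50.2 CPM with the control vector and 75.8 and 67.0 with the MYC vector in set 2, and 45.0 and 43.9 against 72.2 and 60.0 in set 5, and the groups did not overlap here either. Ppan changed by 0.59 ± 0.12 on the log2 scale (SE; edgeR adjusted p = 0.0116). The other genes of the list that rose included the nucleolar proteins Ncl at 0.53 ± 0.12 and Gnl3 at 0.55 ± 0.13 and the methyltransferase Fbl at 0.48 ± 0.10, which modifies ribosomal RNA. Mdn1, an ATPase that remodels the maturing large subunit and was not on the list, was among the genes with the largest change and went from 79.4 and 49.7 to 128 and 114 CPM in set 2 and from 127 and 90.8 to 177 and 127 in set 5. The fitted change of Mdn1 was 0.70 ± 0.13 (log2, edgeR adjusted p = 0.0055). Its groups overlapped, since 1 control library of set 5 stood above or level with 2 MYC libraries, while each MYC library was above its own partner.

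**Figure D2:**
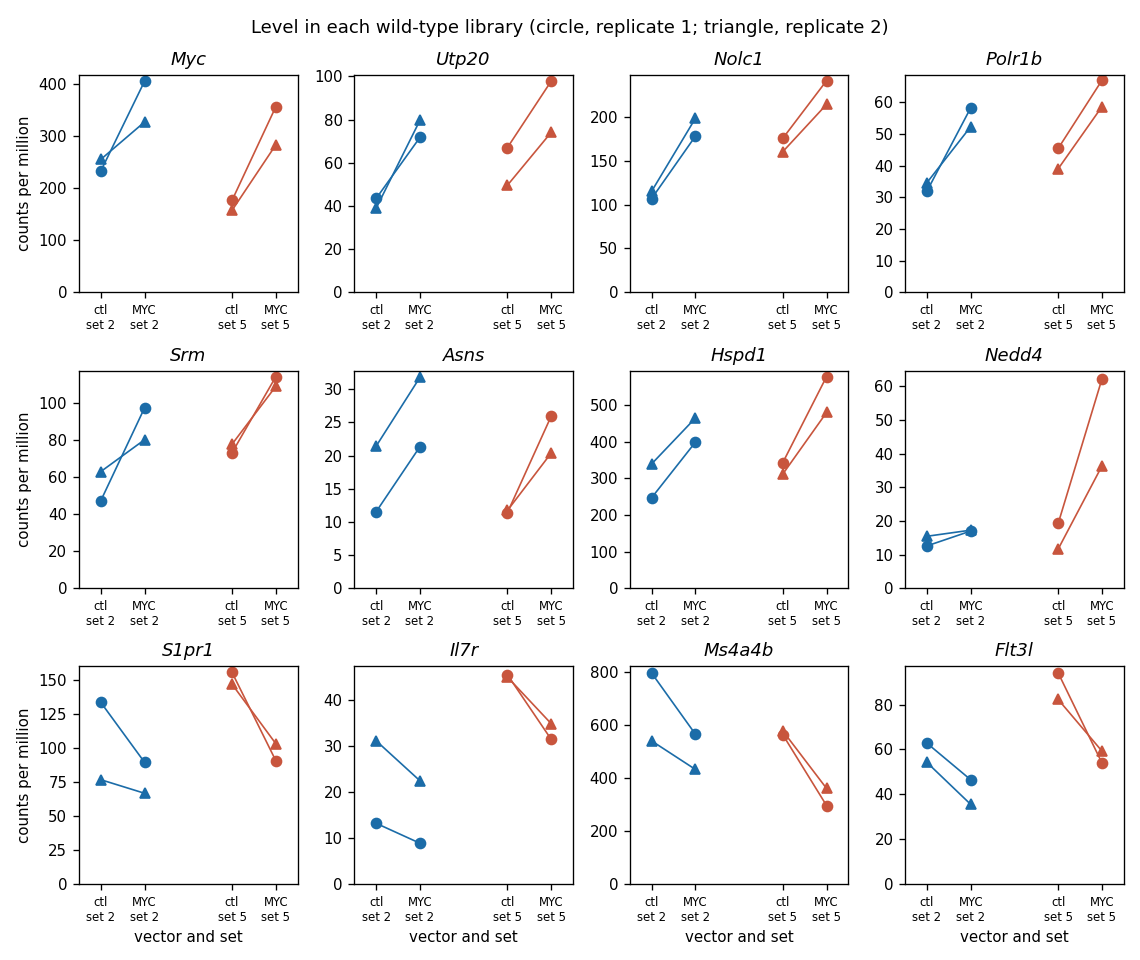
Level in each of the 8 wild-type libraries for 12 genes (y axes start at 0, in CPM), with control (ctl) and MYC vectors for set 2 in blue and set 5 in red; lines join libraries that share a set and a replicate number. The first 8 genes rise along all 4 lines and S1pr1, Il7r, Ms4a4b and Flt3l fall along all 4. Genes of largest change were chosen for moving alike in all 4 pairs, so for them this was required.

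RNA polymerase subunits for ribosomal and transfer RNA moved less evenly. Of 24 tested, 2 rose and none fell (median 0.15), where 0.923% of all genes were called higher. Polr1b, the second largest subunit of RNA polymerase I, which transcribes ribosomal RNA, went from 32.0 and 34.6 to 58.3 and 52.3 CPM in set 2 and from 45.5 and 39.0 to 66.9 and 58.6 in set 5 without overlap. In log2 terms Polr1b moved by 0.65 ± 0.12 (edgeR adjusted p = 0.0046). Polr1a, the largest subunit, rose by 0.50 ± 0.11 (adjusted p = 0.0139 in edgeR). Without 1 library 0 to 2 of the 24 were called, none of them without replicate 1 of the set 2 controls or of the set 5 MYC libraries. Of 25 ribosomal proteins tested none passed the test (median -0.01). That average joins -0.11 in set 2, with 2 of 25 above 0, and 0.08 in set 5, with 24 of 25 above 0. The stalk protein Rplp0 stood at 4821 and 5478 CPM with the control vector and 5068 and 4875 with the MYC vector in set 2, and 3320 and 3867 against 3622 and 3967 in set 5, and the groups overlapped.

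In translation, 1 of 20 tested factors rose, where 0.923% of all genes were called higher. This was Pabpc4, a protein that binds messenger RNA tails, which went from 80.5 and 90.7 to 114 and 114 CPM in set 2 and from 80.8 and 89.1 to 125 and 119 in set 5. Pabpc4 changed by 0.47 ± 0.11 on the log2 scale (SE; edgeR adjusted p = 0.0262). Of 20 tested aminoacyl-tRNA synthetases, which load amino acids onto transfer RNA, 3 rose and none fell (median 0.24): Iars for isoleucine at 0.50 ± 0.10, Eprs for glutamate and proline at 0.40 ± 0.10 and Nars for asparagine at 0.35 ± 0.09. Without 1 library 0 or 1 of these 3 was called, and the call of Pabpc4 was lost in 7 of 8 fits; without the block Nars had an adjusted p of 0.0588 in edgeR.

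The metabolic lists held fewer calls, all of them upward, where 0.923% of all genes were called higher. Where a list held 1 call, that call describes the gene, and the list as a whole was not tested. Among genes of glutamine and proline metabolism 4 of 14 rose and none fell (median 0.27), with 2 called without the block and 0 to 3 without 1 library, 0 without replicate 1 of the set 2 controls. Asns, which makes asparagine, stood at 11.5 and 21.4 CPM with the control vector and 21.4 and 31.8 with the MYC vector in set 2, and 11.4 and 11.7 against 25.9 and 20.4 in set 5. Each MYC library was above its own partner, though the highest control library of set 2 exceeded the lowest MYC library of either set. Asns changed by 0.86 ± 0.15 on the log2 scale (SE; edgeR adjusted p = 0.00424). Asns is also the 1 called gene of 14 in the list of ATF4 targets. Bcat1, which transfers the amino group of branched-chain amino acids, went from 26.3 and 43.5 to 44.7 and 59.6 CPM in set 2 and from 29.1 and 30.4 to 53.1 and 46.3 in set 5 without overlap. Bcat1 changed by 0.67 ± 0.13 on the log2 scale (SE; edgeR adjusted p = 0.0079). Gls2, a glutaminase, was raised by 0.72 ± 0.19 on average but by 0.17 in set 2 and 1.27 in set 5. Prodh, which degrades proline, was at 0.448 to 1.17 CPM in control and 0.998 to 1.97 in MYC libraries, a low level. Prodh changed by 1.17 ± 0.31 on the log2 scale (SE; edgeR adjusted p = 0.0433). Its call was lost without the block (edgeR adjusted p = 0.0586), without the filter on low counts (0.0747) and in all 8 fits that left out a library, and that of Gls2 without the block (0.0867) and in 7 of the 8. Bcat1 lost its call in 4 of them and Asns in 1.

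Of 14 genes of serine and one-carbon metabolism, 3 rose and none fell (median 0.20), where 0.923% of all genes were called higher. With 1 library left out 0 to 2 were called. These were the cytosolic and mitochondrial hydroxymethyltransferases Shmt1 at 0.53 ± 0.13 and Shmt2 at 0.49 ± 0.12, which split serine into glycine and a one-carbon unit, and Mthfd1 at 0.51 ± 0.13, which interconverts folate-bound units. In nucleotide synthesis 1 of 25 rose, the purine enzyme Gart, which went from 140.2 and 156 to 220.3 and 238 CPM in set 2 and from 222 and 214 to 289.6 and 252 in set 5. The fitted change of Gart was 0.47 ± 0.11 (log2, edgeR adjusted p = 0.0263). In polyamine synthesis 1 of 8 tested rose, spermidine synthase Srm, with 47.2 and 63.0 CPM with the control vector and 97.4 and 80.2 with the MYC vector in set 2, and 73.2 and 77.8 against 114 and 109 in set 5 and no overlap. In log2 terms Srm moved by 0.63 ± 0.14 (edgeR adjusted p = 0.0139). Without 1 library the call of Srm was lost in 5 of 8 fits and that of Gart in all 8. Of 13 amino acid transporters none passed the test, although all 13 fitted values were above 0 (median 0.23).

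Sugar metabolism and respiration showed little, where 0.923% of all genes were called higher. Of 22 tested genes of glycolysis and sugar transport 1 rose, the lactate and pyruvate carrier Slc16a1, which went from 99.5 and 109.8 to 150.3 and 145 CPM in set 2 and from 103 and 95.8 to 154 and 132 in set 5 (log2 fold change 0.51 ± 0.10 (SE), edgeR adjusted p = 0.0111), and the median was 0.03. The glycolysis median joins -0.07 in set 2, with 5 of 22 above 0, and 0.12 in set 5, with 21 of 22 above 0. None of 22 genes of respiration and the TCA cycle (median 0.07) and none of 21 genes of cholesterol synthesis (median 0.06) passed the test. Mitochondrial biogenesis genes gave 3 of 22 higher (median 0.22): the chaperonin Hspd1, which went from 246 and 339 to 398 and 464 CPM in set 2 and from 342 and 311 to 577 and 479 in set 5 (log2 fold change 0.63 ± 0.13 (SE), edgeR adjusted p = 0.0111), the matrix protein C1qbp at 0.54 ± 0.13 and the ribosomal protein Mrps18b at 0.47 ± 0.11. Of 20 chaperones 2 rose, Hsph1 at 0.55 ± 0.12 and the mitochondrial Hspa9 at 0.43 ± 0.10. In all 4 pairs 18 of the 20 were higher, where 14.8% of all genes were. Without 1 library 0 to 3 of the mitochondrial genes and 0 to 2 of the chaperones were called, and the call of Slc16a1 was lost in 4 of 8 fits.

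**Figure D3:**
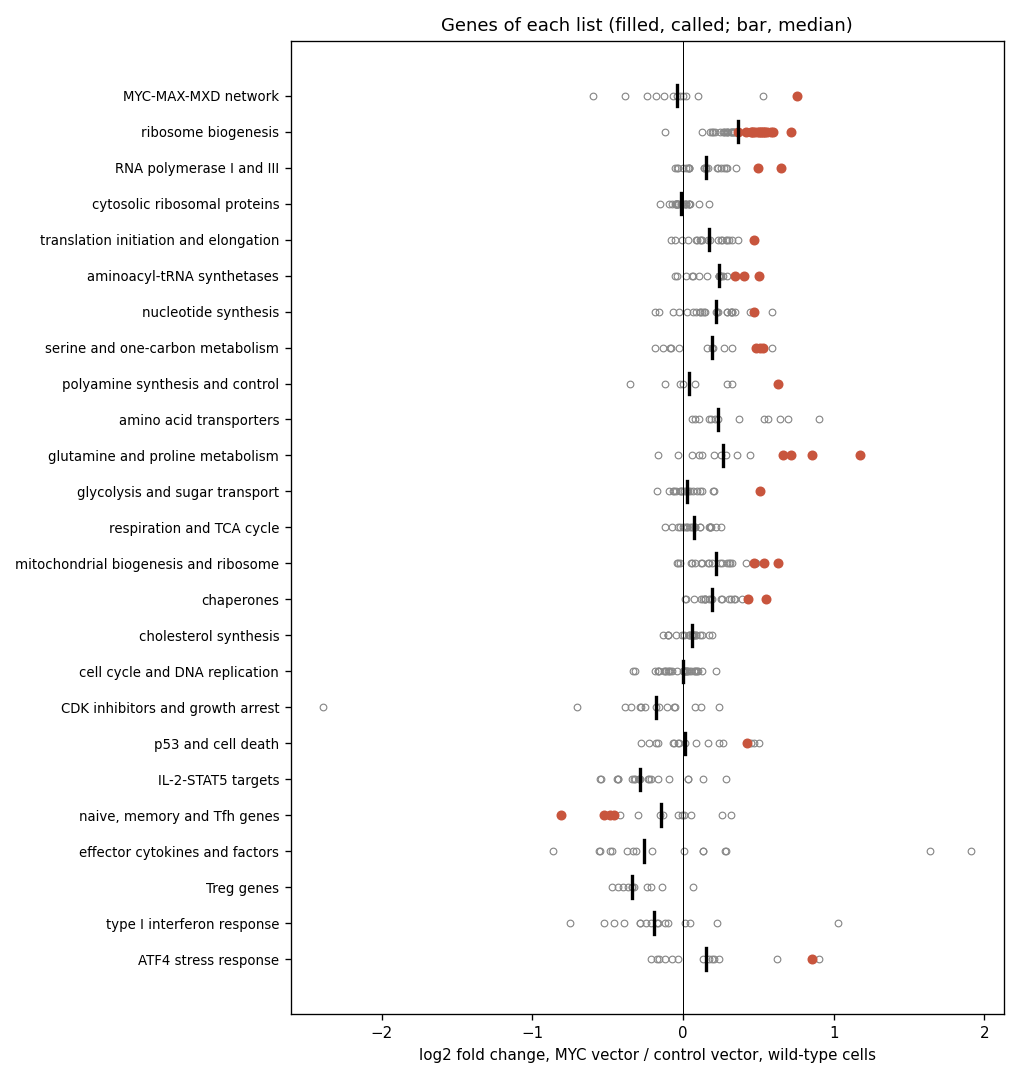
Log2 fold change of MYC vector over control vector in wild-type cells for the tested genes of each of 25 lists. Filled dots are genes called by edgeR, open dots genes that were not, and bars the medians, from 0.37 for ribosome biogenesis to -0.34 for Treg genes.

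The remaining genes of the largest increases have no list in common. Nedd4, a ubiquitin ligase, stood at 12.6 and 15.4 CPM with the control vector and 17.0 and 17.2 with the MYC vector in set 2, and 19.2 and 11.6 against 62.1 and 36.3 in set 5. The change was uneven: 0.29 in set 2 and 1.64 in set 5 on the log2 scale, and the call was lost in 5 of the 8 fits that left out a library. Nedd4 changed by 0.97 ± 0.21 on the log2 scale (SE; edgeR adjusted p = 0.0139). Nefh, the heavy neurofilament chain, went from 36.3 and 50.9 to 62.4 and 75.9 CPM in set 2 and from 52.6 and 50.03 to 103 and 88.6 in set 5 with no overlap, and it was called in all 8 of those fits. Nefh changed by 0.79 ± 0.13 on the log2 scale (SE; edgeR adjusted p = 0.00243). The p53 and cell death list had 1 call among 17 tested genes, where 0.923% of all genes were called higher. This was Zmat3, a target of p53 that binds RNA, at 0.43 ± 0.11. Its call was lost without the block (edgeR adjusted p = 0.193) and in all 8 fits.

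The promoters of the genes called higher were read for the E-box CACGTG, which is a palindrome, so that 1 search covers both strands. RefSeq windows of GRCm38.p6, 250 bases before to 50 after each start site, matched 111 of the 151 genes called higher, of which 26 (23.4%) held the motif, against 10.8% of 12291 matched genes among those tested, 8.09% of 27025 in the whole table, 10.9% of 55 matched genes called lower and 27.3% of 33 matched ribosome biogenesis genes. Of 30 named genes called higher 23 matched and 6 held it. The windows of 5 of these are given with the motif in capitals, since they show where the letters lie in genes of ribosome building, protein folding, transport and translation; a match describes the letters and is not a site of binding. The motif starts 37 bases after the listed start site in Utp20 (chr10:88826765-88827064 on the minus strand), 38 after it in Mdn1 (chr4:32656869-32657168 on the plus strand), 80 before it in Hspd1 (chr1:55088194-55088493 on the minus strand), 200 before it in Slc16a1 (chr3:104638414-104638713 on the plus strand) and 69 before it in Iars (chr13:49681880-49682179 on the plus strand).
Utp20: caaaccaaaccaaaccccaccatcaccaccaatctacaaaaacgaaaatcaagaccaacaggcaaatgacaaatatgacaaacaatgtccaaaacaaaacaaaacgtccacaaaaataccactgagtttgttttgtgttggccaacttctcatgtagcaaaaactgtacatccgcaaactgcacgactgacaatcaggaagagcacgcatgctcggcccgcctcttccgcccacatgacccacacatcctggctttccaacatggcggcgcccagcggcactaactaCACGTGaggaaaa
Mdn1: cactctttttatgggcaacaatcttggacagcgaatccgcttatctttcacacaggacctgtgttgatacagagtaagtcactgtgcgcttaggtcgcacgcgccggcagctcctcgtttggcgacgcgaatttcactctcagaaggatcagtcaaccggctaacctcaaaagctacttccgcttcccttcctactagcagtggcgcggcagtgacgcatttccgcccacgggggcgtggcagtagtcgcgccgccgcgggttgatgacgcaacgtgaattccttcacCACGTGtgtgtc
Hspd1: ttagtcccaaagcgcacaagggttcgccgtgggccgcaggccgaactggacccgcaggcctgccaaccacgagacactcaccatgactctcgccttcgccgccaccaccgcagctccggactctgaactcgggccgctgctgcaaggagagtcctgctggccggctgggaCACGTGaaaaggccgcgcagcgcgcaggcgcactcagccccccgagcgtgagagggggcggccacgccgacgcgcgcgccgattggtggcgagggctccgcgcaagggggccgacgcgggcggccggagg
Slc16a1: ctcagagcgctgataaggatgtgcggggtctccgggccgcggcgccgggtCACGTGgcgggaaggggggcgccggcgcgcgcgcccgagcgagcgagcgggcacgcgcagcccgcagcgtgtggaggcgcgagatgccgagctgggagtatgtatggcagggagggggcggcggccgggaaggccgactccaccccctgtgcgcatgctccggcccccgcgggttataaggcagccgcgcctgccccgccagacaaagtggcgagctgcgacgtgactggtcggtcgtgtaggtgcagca
Iars: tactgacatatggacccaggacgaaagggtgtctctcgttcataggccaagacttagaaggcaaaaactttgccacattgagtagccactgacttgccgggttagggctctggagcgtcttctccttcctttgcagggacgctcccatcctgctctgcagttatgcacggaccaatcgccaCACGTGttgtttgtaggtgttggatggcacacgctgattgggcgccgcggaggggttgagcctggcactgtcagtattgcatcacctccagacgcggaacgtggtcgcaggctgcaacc

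The 77 genes that fell included surface receptors of resting and circulating T cells. Of 14 tested genes of the naive, memory and follicular helper list 4 fell and none rose (median -0.14), where 0.471% of all genes were called lower. That median joins -0.045 in set 2, with 6 of 14 above 0, and -0.221 in set 5, with 3 of 14 above 0. Dapl1, a transcript of naive T cells, went from 109.9 and 87.3 to 67.7 and 67.0 CPM in set 2 and from 120.5 and 141 to 58.2 and 65.8 in set 5, with all MYC libraries below all controls. Dapl1 changed by -0.81 ± 0.17 on the log2 scale (SE; edgeR adjusted p = 0.0111). S1pr1, the receptor for sphingosine phosphate with which T cells leave lymph nodes, went from 134 and 76.8 to 89.6 and 66.8 CPM in set 2 and from 156 and 147 to 90.9 and 103 in set 5; the groups overlapped, and each MYC library was below its own partner. S1pr1 changed by -0.53 ± 0.13 on the log2 scale (SE; edgeR adjusted p = 0.0369). Il7r, the IL-7 receptor chain, stood at 13.2 and 31.1 CPM with the control vector and 8.86 and 22.4 with the MYC vector in set 2, and 45.5 and 45.0 against 31.5 and 34.9 in set 5, lower in each MYC library than in its partner while the groups overlapped. The fitted change of Il7r was -0.49 ± 0.12 (log2, edgeR adjusted p = 0.0407). Without 1 library the call of Dapl1 was lost in 5 of 8 fits, that of S1pr1 in 7 and that of Il7r in all 8. Without the block 1 gene of the list was called, and S1pr1 and Il7r had adjusted p-values of 0.0762 and 0.534 in edgeR.

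Among genes of mean log2 CPM 4 or more that fell in all 4 pairs, the largest decrease was in Ms4a4c, a membrane protein of the CD20 family, which went from 114 and 60.0 to 67.8 and 44.4 CPM in set 2 and from 33.0 and 36.4 to 12.8 and 16.2 in set 5. In log2 terms Ms4a4c moved by -0.94 ± 0.21 (edgeR adjusted p = 0.0139). Its relative Ms4a4b, which T cells express strongly, went from 795 and 539 to 565 and 432 CPM in set 2 and from 563 and 577 to 296 and 360.2 in set 5. Ms4a4b changed by -0.61 ± 0.13 on the log2 scale (SE; edgeR adjusted p = 0.0139). For both genes each MYC library was below its own partner, and in set 2 the groups overlapped. Flt3l, the ligand of the receptor Flt3 on dendritic cell precursors, stood at 62.8 and 54.2 CPM with the control vector and 46.5 and 35.5 with the MYC vector in set 2, and 94.1 and 82.2 against 54.0 and 59.2 in set 5. The Flt3l groups did not overlap within either set, and it was called in all 8 fits that left out a wild-type library. Flt3l changed by -0.58 ± 0.09 on the log2 scale (SE; edgeR adjusted p = 0.000835). The interferon-induced genes Ifi27l2a at -0.63 ± 0.17 and Zbp1, a sensor of left-handed nucleic acids, at -0.59 ± 0.12 fell as well, while none of the 16 tested genes of the interferon list passed the test (median -0.19). Without 1 library the calls of Ms4a4c, Ms4a4b, Ifi27l2a and Zbp1 were lost in 6, 5, 7 and 5 of 8 fits, and without the block Ifi27l2a had an adjusted p of 0.0535 in edgeR.

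The other named genes of the largest decreases have no list in common. Tmsb4x, which binds actin monomers, stood at 3849 and 4206 CPM with the control vector and 2962 and 2951 with the MYC vector in set 2. In set 5 it stood at 4180 and 4923 against 2649 and 3253, and the groups did not overlap within either set. Tmsb4x changed by -0.54 ± 0.12 on the log2 scale (SE; edgeR adjusted p = 0.0139). Gsn, which severs actin filaments, fell by 0.62 and the calcium-binding S100a13 fell by 0.70, both without overlap. Igfbp7, a secreted binding protein, fell by 0.64, the zinc finger repressor Zbtb4 fell by 0.57 and Sh2d1a, the adaptor SAP of SLAM family receptors, fell by 0.55. Without the block the calls of Tmsb4x, Gsn, Igfbp7 and Zbtb4 were lost, with adjusted p-values of 0.0504, 0.13, 0.0907 and 0.0909 in edgeR. Without 1 library those 4 calls were lost in 6, 7, 4 and 7 of 8 fits, and those of S100a13 and Sh2d1a in 1 each. Genes called lower had a shorter span on the genome, with a median of 12.3 kb against 21.9 kb for those called higher and 22.6 kb for all tested genes with a match. This span includes introns and is not the transcript length, whose part in these calls was not tested.

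**Figure D4:**
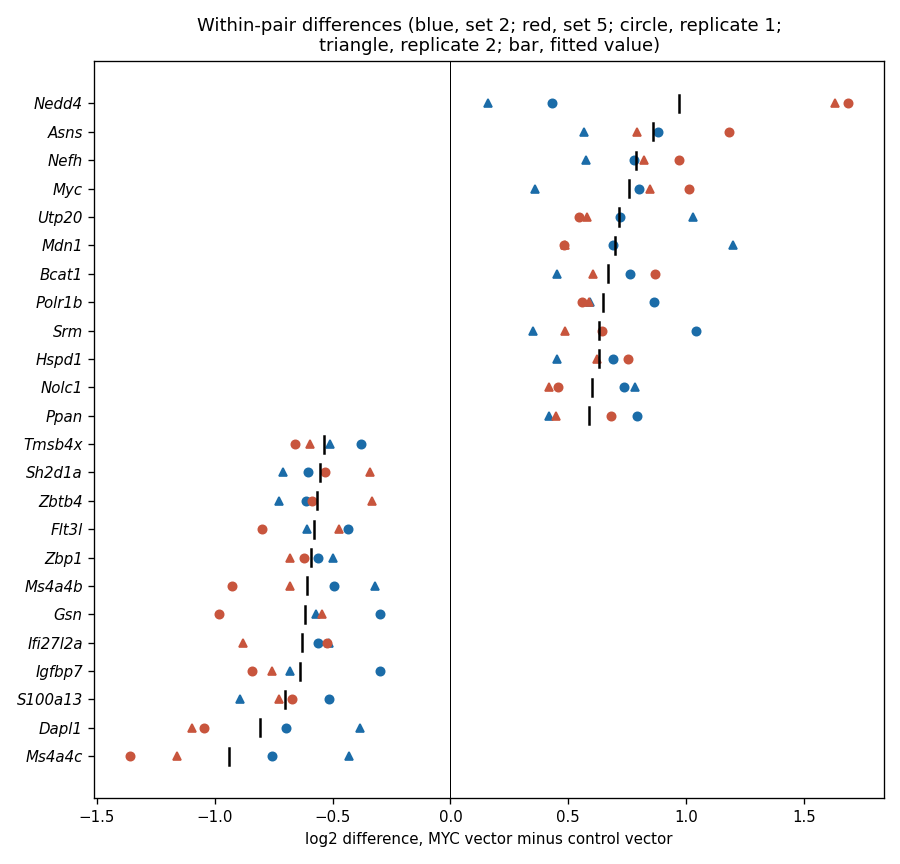
Difference between the MYC and the control library of each pair (x axis, log2 scale) for the 12 named genes of largest increase and the 12 of largest decrease; blue is set 2, red set 5, circles replicate 1, triangles replicate 2 and bars the fitted values. All 4 points of each gene lie on 1 side of 0 because the rule that chose these genes required it. The sets are farthest apart for Nedd4.

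Cell division and T cell effector programmes gave no calls in wild-type cells. Of 30 tested genes of the cell cycle and DNA replication none passed the test. The average median of 0.00 joins 0.10 in set 2, with 19 of 30 above 0, and -0.12 in set 5, with 5 of 30 above 0. In all 4 pairs 2 were higher and 9 lower, where 14.8% and 14.3% of all genes were. The topoisomerase Top2a stood at 1793 and 1380 CPM with the control vector and 1691 and 1663 with the MYC vector in set 2, and 2564 and 2000 against 1981 and 1732 in set 5. The proliferation marker Mki67 stood at 1366 and 867 CPM with the control vector and 1296 and 1246 with the MYC vector in set 2, and 2203 and 1794 against 1890 and 1604 in set 5. The groups overlapped for both genes. None of 20 IL-2-STAT5 targets, 11 Treg genes, 16 effector cytokine and factor genes, 15 CDK inhibitors and growth arrest genes and 10 CD4 markers passed either. Their medians were -0.29, -0.34, -0.26, -0.18 and -0.22. The effector median turned to 0.16 without replicate 2 of the set 2 control libraries and to 0.04 in set 5 alone, and the median of the CDK inhibitors moved to -0.09 without that same library. Of the 20 IL-2-STAT5 targets 14 were lower in all 4 pairs, where 14.3% of all genes were. Il2ra, the IL-2 receptor alpha chain, stood at 2870 and 2244 CPM with the control vector and 2202 and 2277 with the MYC vector in set 2, and 2838 and 2289 against 2346 and 1998 in set 5, a log2 fold change of -0.21 ± 0.15. Bcl2, which protects from cell death, stood at 764 and 667 CPM with the control vector and 642 and 649.8 with the MYC vector in set 2, and 713 and 566 against 606 and 524 in set 5, a log2 fold change of -0.16 ± 0.09. The same direction in many members of a list that holds no call is a description of these libraries, and the summed CD4 markers given above were lower with MYC in both sets.

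The sets differ in design, since set 2 used 1 vector and set 5 used 2. Alone, set 2 gave 7 calls and set 5 gave 5, at 1166 and 1448 genes with an unadjusted p below 0.05. The difference between the sets was called for 1 gene, Ngfr, which encodes a nerve growth factor receptor, at 507 genes with an unadjusted p below 0.05. Ngfr was chosen here after its values were seen. In set 2 it stood at 40.1 and 23.0 CPM with the control vector and at 0.308 and 0.267 with MYC (826 and 394 reads against 5 and 4), and in set 5 at 69.2 and 49.5 against 81.2 and 57.7 CPM. Both set 5 groups carry a control vector and the set 2 MYC libraries carry none. The 4 control libraries of set 3 held 0 to 0.16 CPM. STAT5-vector libraries, which carry no control vector in sets 2 and 3, held 9.71 to 31.6 CPM in set 2 and 10.7 to 24.3 in set 3. The source of the Ngfr reads was not tested. For Ngfr the average log2 fold change of -3.26 ± 0.22 (edgeR adjusted p = 4.89e-12) combines -6.74 in set 2 with 0.22 in set 5. Rn45s, the ribosomal RNA precursor transcript, stood at 3349 and 3024 CPM in the set 2 controls against 1290 and 1451 with MYC, and at 1382 and 1469 against 1306 and 1951 in set 5; its part in the results was not tested. Over 7896 genes of mean log2 CPM 4 or more, the changes of set 5 and set 2 correlated at r = 0.465 across genes, which are not independent replicates.

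The same vectors in STAT5-deficient cells (Stat5a/b flox/flox Cd4-Cre+/-, where Cre is driven by the Cd4 promoter in T cells) gave more calls. There Stat5a stood at 2.06 to 17.1 and Stat5b at 0.738 to 7.35 CPM, with the highest values of both in the replicate 1 libraries of set 5. Depth in the deficient libraries was 17.62 M to 19.12 M counts in set 2 and 5.723 M to 9.835 M in set 5. The comparison within deficient cells was run in the main fit only, so the stability of its counts was not tested. With 4 libraries a side that are not shared with the wild-type comparison, 1741 genes were called higher (10.6%) and 625 lower (3.82%). Of the 151 genes called higher in wild-type cells, 134 were called higher there too, which is 88.7% of the wild-type calls and 7.7% of the deficient ones, and none was called lower. Of the 77 called lower, 43 were also called lower, 55.8% and 6.88% of each list, and 1 was called higher. The 1741 genes had a median log2 fold change of 0.51 in deficient and 0.14 in wild-type cells, and the 625 had -0.40 and -0.22. Both lists were chosen by their calls in deficient cells, so the larger medians there are partly built in. Chosen by their calls in wild-type cells, the 151 genes had medians of 0.509 in wild-type and 0.855 in deficient cells. The 77 genes had -0.435 and -0.328.

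Myc differed most among the named genes. With the control vector it stood at 83.0 and 89.7 CPM in set 2 and 38.3 and 65.4 in set 5 of deficient cells, below all wild-type controls, and with the MYC vector at 974 and 589 and at 275 and 363. Its log2 fold change was 2.89 ± 0.20 in deficient cells, larger than in wild-type cells by 2.14 ± 0.27 (edgeR adjusted p = 1.44e-05). The test of the difference between genotypes called 301 genes, 296 with the larger log2 fold change in deficient cells (1.81%) and 5 with the smaller (0.0306%), and 71 to 675 genes were called when 1 of the 16 libraries was left out. The lowest count was without replicate 2 of the set 5 deficient control libraries and the highest without replicate 1 of the same group, and 665 genes were called without the 2 libraries outside the comparison.

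Gene groups were then set side by side for both genotypes. Of all genes tested, 10.6% were called higher in deficient cells, and 1.81% passed the test of the difference with the larger change there. Ribosome biogenesis genes were called higher in 38 of 39 cases in deficient cells (median 0.95), and 16 of the 39 passed the test of the difference. Of the 30 cell cycle and DNA replication genes 25 were called higher in deficient cells (median 0.53) and 13 passed the test of the difference. In wild-type cells none was called (median 0.10 in set 2 and -0.12 in set 5). Top2a and Mki67 themselves missed it, with differences of 0.54 ± 0.16 and 0.52 ± 0.16 (edgeR adjusted p = 0.0751 and 0.078). In nucleotide synthesis 23 of 25 were called in deficient cells and 10 passed the test of the difference. Of the 14 naive, memory and follicular helper genes 1 was called lower in deficient cells, where 3.82% of all genes were. Utp20, Mdn1, Hspd1, Asns and Nedd4 rose in both genotypes, and their differences of 0.45 ± 0.17, 0.22 ± 0.18, 0.42 ± 0.18, 0.62 ± 0.27 and 0.36 ± 0.31 missed the threshold.

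**Figure D5:**
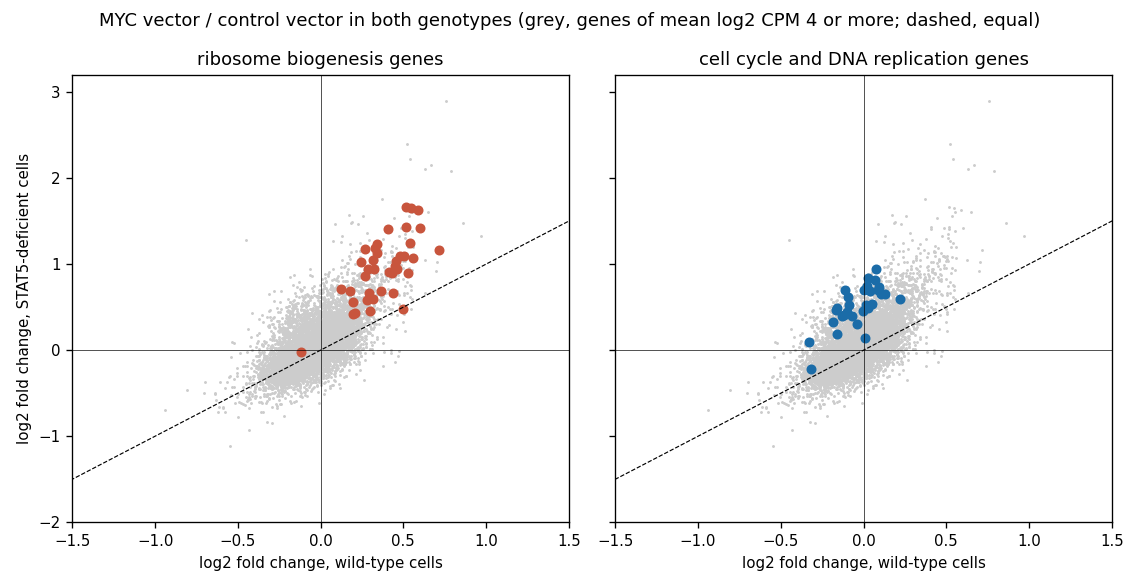
Log2 fold change of MYC vector over control vector in wild-type cells (x axis) against STAT5-deficient cells (y axis); grey dots are genes of mean log2 CPM 4 or more and the dashed line marks equal changes. Ribosome biogenesis genes (left, red) lie to the right of 0 with 1 exception and mostly above the line. The cell cycle and DNA replication genes (right, blue) lie mostly above 0 in deficient cells. In wild-type cells they centre on 0, the average of a set 2 median of 0.10 and a set 5 median of -0.12.

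In set 5 wild-type cells MYC was also added to a STAT5 vector, with 2 libraries a side that are not among the 8. Myc stood at 214 and 243 CPM with the STAT5 vector and 406 and 391 with both, a log2 fold change of 0.81 ± 0.27 (edgeR adjusted p = 0.0584). Here 228 genes were called higher (1.39%) and 863 lower (5.28%), but with RLE scaling the split was 470 against 657, and 66 calls were left without replicate 1 of the libraries with both vectors. Of the 151 genes called higher with MYC alone 69 were called higher here and none lower, and of the 77 called lower 48 were called lower and none higher. Ribosome biogenesis genes were called higher in 17 of 39 cases (median 0.47), and 3 of 30 cell cycle and DNA replication genes were called lower (median -0.17). Il7r, at -1.02 ± 0.17, and Dapl1, at -1.43 ± 0.25, fell here as they did with MYC alone. The effect of MYC with the STAT5 vector against that without it, tested within set 5 by edgeR, differed for 0 genes at an adjusted p below 0.05, with 412 at an unadjusted p below 0.05; DESeq2 was not run on that difference.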

How the data were processed

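The authors' deposited tables hold raw counts per gene, whole numbers in 1 table per set, made with TopHat2, Bowtie2 and HTSeq on mm9 per the submitters' processing notes. Tool versions and the counting strand are not given in the sources used here, so overlapping and antisense genes cannot be told apart. Libraries were made from poly(A) RNA, per the labels' protocols. Tables of sets 2, 3 and 5 were joined on 23014 symbols, after 253 symbols of set 3 were given back a hyphen. Counts of 52 libraries in 26 groups were fitted with edgeR 4.0.16 in R 4.3.3 (filterByExpr, 16359 genes; TMM; quasi-likelihood test; Benjamini-Hochberg adjustment over all genes), with a block for replicate number within each set. The wild-type contrast is the mean of the within-set differences. The spread is shared by all 52 libraries, with 23 residual degrees of freedom.

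The replicate differences of control and MYC groups correlated at 0.589 in set 2 and 0.814 in set 5 over 7896 genes. Over all 15 pairs of groups in set 2 the correlation was -0.276 to 0.683 (median 0.455), and over all 66 in set 5 it was -0.23 to 0.814 (median 0.327), so the numbers did not pair every group. Same-numbered libraries of a set are of the same sex, except that 1 library of set 3 held both Xist and Ddx3y. The labels do not say that a number marks a shared animal. The wild-type comparison was checked on simulated data of 16359 genes, with changes placed only in genes of mean log2 CPM 4 or more. Of these, 88% of 100 genes changed 1.5-fold and 100 of 100 changed 2-fold were recovered, and 12 of the 200 calls were of unchanged genes. Recovery of genes at lower levels was not tested. Counts were drawn independently from the fitted means and spread, so libraries that stand apart were not simulated.

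Alternatives were no block, RLE scaling, DESeq2 1.42.0, no filter on low counts, fewer libraries, each set alone and leaving out each library. Named genes are Myc, in each direction the 12 called genes that changed most among those of mean log2 CPM 4 or more that moved alike in all 4 pairs, and up to 4 called members of each of 31 lists (520 genes, 515 in the tables); where a list had no call, up to 2 members of highest level are given as values. The values of 1 named gene are not reported here. Members, lists and tests were chosen with earlier results of these data known. The other sets and the chromatin samples were not analysed here.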

Additional observations from a re-analysis of the deposited data

Results flagged for a closer look

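For 11 named genes the MYC effect differed between genotypes in edgeR's test of the difference at an adjusted p below 0.05, each time with the larger log2 fold change in STAT5-deficient cells. Of all genes tested 1.81% differed in that direction. The differences of the named genes were 2.14 for Myc, 1.49 for the aminotransferase Bcat1, 1.48 for spermidine synthase Srm and 1.29 for the neurofilament chain Nefh. Ppan and Nolc1 of ribosome biogenesis differed by 1.05 and 0.82 and the polymerase subunit Polr1b by 0.95. C1qbp and Hspa9 of mitochondria differed by 1.02 and 0.78, the purine enzyme Gart by 0.86 and the folate enzyme Mthfd1 by 0.79. Myc counts, from the vector and the cell's own gene together, rose more in deficient cells, and their part in these differences was not tested.

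Between the sets, Ngfr was the gene whose MYC effect differed in the test across all genes, by 6.96 on the log2 scale in set 5 against set 2. With 2 libraries per group, single libraries that stand apart were not tested for.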

How the results depend on the processing

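All 720 values of the 45 named genes under the other settings kept their direction. Apart from Myc, these genes were named because they were called in the same libraries. Those of largest change were also required to move alike in all pairs. Their direction could therefore hardly reverse, and the 720 values do not test how robust it is. The number of calls did not keep its size. In wild-type cells 130 genes were called without the replicate block, where Myc at 0.76 missed the threshold, 1936 with only the 8 libraries compared (734 higher, 1202 lower; 2 residual degrees of freedom by construction), 628 with DESeq2 (350 higher, 278 lower), 7 in set 2 alone with Myc at 0.57, 5 in set 5 alone with Myc at 0.94, and 619 without the 2 libraries outside the comparison, the wild-type STAT5 library of set 3 with fewest counts and a STAT5-deficient library of set 5 with a high share of Rn45s, an alternative chosen after seeing the data. RLE scaling gave 313 calls and no filter on low counts 200. Leaving out 1 library gave 17 to 132 calls and Myc at 0.55 to 0.92; Nefh, Utp20 and Flt3l kept their calls in all 8 such fits, and Nolc1, Eprs, Nars, Gart, Mthfd1, Prodh, Zmat3 and Il7r kept them in none. The difference between genotypes counted 469 genes with only the 16 libraries compared, 560 with DESeq2, 665 without the 2 libraries, and 71 to 675 with 1 library left out, also chosen after seeing the data. MYC added to the STAT5 vector gave 1796 calls with DESeq2, 1836 without the 2 libraries and 66 to 741 with 1 library left out. The cause of these changes was not tested. Of 400 list medians under the other settings 372 kept their sign. Medians crossed 0 for 7 of the 25 lists: cell cycle genes (-0.12 to 0.10), ribosomal proteins (-0.11 to 0.08), glycolysis genes (-0.07 to 0.12), effector cytokines and factors (-0.38 to 0.16), p53 and cell death genes (-0.06 to 0.15), cholesterol synthesis (-0.05 to 0.14) and the MYC network (-0.11 to 0.03). Recovery of changes below 1.5-fold at this depth was not tested.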

Other observations

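The imprinted long noncoding RNA H19 was chosen after its values were seen, as a gene below the level at which genes were named. It stood at 4.61 and 9.23 CPM with the control vector and 16.1 and 9.76 with MYC in set 2, and at 0.963 and 0.895 against 10.9 and 6.51 in set 5. Its log2 fold change was 2.04 (edgeR adjusted p = 0.000835). With the STAT5 vector it stood at 71.1 and 68.8 CPM, and with both vectors at 98.8 and 87.3.

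Among the 5 genes whose MYC effect was smaller in STAT5-deficient cells were Tnfsf4, which encodes the costimulatory ligand OX40L, with a difference of -1.25 on the log2 scale, and Ccng1, a cyclin known as a p53 target, with -0.61. The other three were Mccc1, Unc119 and B630005N14Rik, at -0.68, -0.60 and -0.54.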
